A study of Mus musculus with 4 samples.

Results

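The 10 genes described here mark the T cells that lie within the gut epithelium and their cytotoxic products, namely Ptprc, Cd3e, Cd3g, Cd8a, Itgae, Trdc, Gzma, Gzmb, Cd7 and Nkg7. They were taken by symbol from the 16015 genes listed for colonic epithelial cells of mice with DSS colitis, and all 10 were listed. The question was whether intraepithelial lymphocytes were kept in the crypt preparation, read against Ptprc.

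Colonic crypt RNA was sequenced on day 7 from 2 control mice (WT 1 and WT 2) and from 2 mice labelled Bmal1 cKO (cKO 1 and cKO 2). Controls were Bmal1 fl/fl mice without Cre, and the libraries labelled cKO came from Villin-CreERT2; Bmal1 fl/fl mice whose Cre was activated by intraperitoneal tamoxifen on 5 consecutive days. Whether controls also received tamoxifen is not given in the sources used here. All were C57BL/6 mice of 2 to 4 months, given 3% DSS (dextran sulfate sodium, which injures the colonic epithelium) in drinking water for 5 days and then plain water for 2 days. The villin promoter drives Cre in the intestinal epithelium, so the leukocytes that carry these transcripts are not the cells it targets. Crypts were released with EDTA, scraped and strained without a sort, so leukocytes and stromal cells could remain in every library.

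Intraepithelial lymphocytes are T cells that sit between the epithelial cells of the gut lining, and many carry CD8 and either the alpha-beta or the gamma-delta T cell receptor. They are held there by the integrin CD103, which binds E-cadherin on epithelial cells, and they can kill damaged or infected cells by releasing granzymes. In a bulk library, fewer cells of a type and less RNA per cell cannot be told apart.

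Each library held 10312791 to 14156639 reads on the listed genes, and 3 reads corresponded to 2.53 to 4.06 normalized counts, the unit used below (reads divided by the authors' size factor for that library). Arntl, which encodes BMAL1, was at 358.2 and 342.2 in the control mice and at 341.5 and 289.3 in the mice labelled cKO, and its log2 fold change of −0.16 ± 0.14 (SE, n = 2 per group) did not pass the test (adjusted p = 0.389). A gene-level count includes any exons that a deletion leaves, so this level is a limited check of the label. The markers of the labelled cell type were present, with the 14 epithelial genes summing to 176673 to 286167 normalized counts per library. The libraries also held other cells in unequal amounts. Genes of B and plasma cells summed to 46195 in WT 1, 1182 in WT 2, 417.6 in cKO 1 and 827.2 in cKO 2. Genes of stroma, muscle and endothelium summed to 15935, 3695, 499.9 and 575.8 in the same order, and neutrophil genes to 9416, 26976, 3583 and 2898. WT 1 was the highest library for all 10 members. The part of this uneven makeup in the results below was not tested, and the main counts are also given with each library left out.

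Of the 10 members, 9 had a mean of at least 10 normalized counts and were tested, and 5 fell in the mice labelled cKO (limma, adjusted p under 0.05). These were Ptprc, Gzma, Gzmb, Cd7 and Cd8a. Among all 13983 tested genes, 27.7% were lower and 29% were higher by the same rule, so a fall was common. No member rose. All 9 tested members had a negative log2 fold change, with a median of −1.62 against −0.04 over all tested genes. The members' median was −1.04 without WT 1, where Cd3e was positive (0.99), and −2.53 with GC content and length corrected. In 8 of the 10 members both libraries labelled cKO lay below both control libraries, an ordering that 41.7% of all tested genes showed. Cd3e and Itgae were the exceptions.

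**Figure D1:**
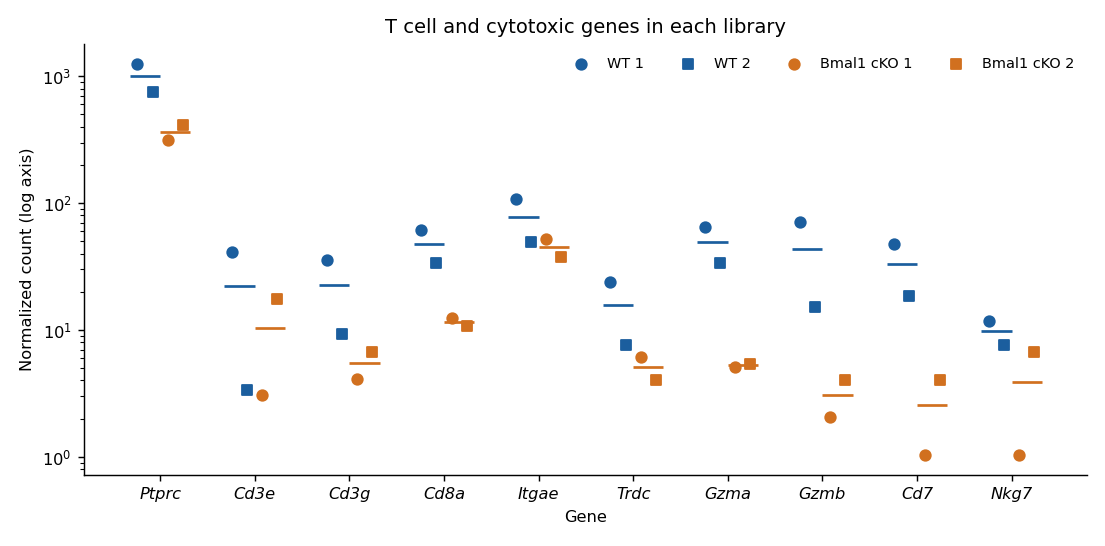
Normalized counts (log axis) of the 10 members in each library, with circles for mouse 1 and squares for mouse 2 of each group and a bar at each group mean (n = 2). WT 1 is the highest point for every gene, and the groups overlap for Cd3e and Itgae.

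Ptprc encodes CD45, the membrane phosphatase carried by almost all leukocytes. It was at 1259 in WT 1, 745.4 in WT 2, 314.8 in cKO 1 and 413.6 in cKO 2. Both control mice were therefore above both mice labelled cKO, with means of 1002 ± 363 and 364.2 ± 69.9 (SD, n = 2). The log2 fold change was −1.42 ± 0.28 (SE; 95% interval −2.12 to −0.73; adjusted p = 0.00865). With GC content and length corrected the fold change of Ptprc, a gene of 39.4% GC, was −2.53. Pooled reads gave a ratio of 0.357 (95% interval 0.326 to 0.390 from counting error only). Ptprc spans chr1:138062861-138175708 on the minus strand (GRCm38, GENCODE M21) and shares no exon base with another annotated gene.

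The T cell receptor signals through the CD3 chains. Cd3e (chr9:44998740-45009627, minus strand) was at 41.4 in WT 1 but only 3.39 in WT 2, with 3.09 in cKO 1 and 17.6 in cKO 2. Each group thus held 1 high and 1 low library, and the groups overlapped. The log2 fold change of Cd3e was −0.65 ± 1.36 with a 95% interval from −4.05 to 2.76 (adjusted p = 0.700), which covers both a large fall and a rise. Its sign turned without WT 1 (0.99) and without cKO 1 (0.45). Cd3e shares 135 exon bases, 3.3% of its exon length, with the antisense gene Gm48719.

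Cd3g, the gamma chain of the same complex (chr9:44969572-44980431, minus strand), was at 35.5, 9.32, 4.11 and 6.76 in WT 1, WT 2, cKO 1 and cKO 2. Both libraries labelled cKO were below both controls, yet the fold change of −1.62 ± 0.86 did not pass the test (adjusted p = 0.158). Without WT 2 it did (−2.53, adjusted p = 0.0374), and without WT 1 the fold change was −0.71 (adjusted p = 0.345).

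Trdc, the constant segment of the T cell receptor delta chain and hence a mark of gamma-delta T cells, lies at chr14:54142851-54148868 on the plus strand. Its levels were 23.7 and 7.62 in the controls and 6.17 and 4.06 in the mice labelled cKO, from 28, 9, 6 and 3 reads. The groups did not overlap, but WT 2 and cKO 1 were 3 reads apart, and the fold change of −1.28 ± 0.84 did not pass (adjusted p = 0.239). Without WT 1 it was −0.52, and without WT 2 it was −2.03. Part of the Trdc exons is shared with the antisense gene Gm43434 (96 bases) and with Trdv5 (207 bases), and whether the counting used strand is not given in the sources used here.

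Cd8a encodes the CD8 alpha chain, which many intraepithelial T cells carry as an alpha-alpha pair (chr6:71373427-71379173, plus strand). It was at 61.7 in WT 1, 33.9 in WT 2, 12.3 in cKO 1 and 10.8 in cKO 2. The controls lay well apart from the mice labelled cKO, and within the latter the libraries differed little (11.6 ± 1.08, SD, n = 2). Cd8a fell with a log2 fold change of −1.90 ± 0.51 (95% interval −3.17 to −0.62; adjusted p = 0.0245).

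Cd4, the co-receptor of helper T cells, was at 119.1, 19.5, 6.17 and 2.70 in the same order and also fell (log2 fold change −3.27 ± 0.98, adjusted p = 0.0357). Among reads of the pair, Cd8a made up 34.1% in WT 1 (exact Clopper-Pearson 95% interval 27.8 to 40.9), 63.5% in WT 2 (50.4 to 75.3), 66.7% in cKO 1 (41.0 to 86.7) and 80% in cKO 2 (44.4 to 97.5). The control mice differed from each other beyond counting error, whereas the intervals of WT 2 and of both libraries labelled cKO overlapped.

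Itgae encodes the alpha E chain of CD103, the integrin that ties these cells to epithelial E-cadherin (chr11:73090583-73147446, plus strand). It was at 107.3 in WT 1, 49.1 in WT 2, 52.5 in cKO 1 and 37.8 in cKO 2. WT 2 lay between both libraries labelled cKO, so the groups overlapped. The fold change was −0.69 ± 0.46 with a 95% interval of −1.85 to 0.47 (adjusted p = 0.244). It was −0.14 without WT 1 and −1.25 without WT 2. Haspin lies in an intron of Itgae on the opposite strand and shares no exon base with it, but its level was higher than that of Itgae (218.8, 242.3, 165.6 and 174.4). Cdh1, the gene of E-cadherin, was at 15052, 18761, 12118 and 12745, and its change of −0.44 ± 0.15 did not pass (adjusted p = 0.0530).

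Gzma and Gzmb encode granzymes A and B, the serine proteases that cytotoxic cells release into their targets. Gzma (chr13:113093825-113100981, minus strand) was at 64.2 in WT 1, 33.9 in WT 2, 5.14 in cKO 1 and 5.41 in cKO 2. Both libraries labelled cKO were low and close together, from 5 and 4 reads. The log2 fold change was −2.93 ± 0.58 (95% interval −4.38 to −1.47; adjusted p = 0.00913), and the ratio of pooled reads was 0.107 (0.0478 to 0.211).

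For Gzmb (chr14:56258838-56262260, minus strand) the levels were 71.0 and 15.2 in the controls against 2.06 and 4.06, from 84, 18, 2 and 3 reads. WT 1 was far above WT 2, and both libraries labelled cKO were at or under 3 reads. Gzmb fell by 3.12 ± 0.93 on the log2 scale (95% interval −5.45 to −0.79; adjusted p = 0.0343), with a pooled ratio of 0.0677 (0.0215 to 0.163).

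Cd7, a surface protein of T and NK cells (chr11:121036747-121039418, minus strand), was at 47.3, 18.6, 1.03 and 4.06, from 56, 22, 1 and 3 reads. The groups did not overlap, and its log2 fold change was the most negative of the tested members in the main fit at −3.27 ± 0.87 (95% interval −5.46 to −1.07; adjusted p = 0.0246). Gzmb was the more negative by edgeR (−3.82 against −3.73 for Cd7) and by DESeq2 (−3.84 against −3.75). With log2 values corrected for GC content and length, Cd7 no longer passed (−2.66, adjusted p = 0.0632), which left 4 members lower where 17.8% of all genes were. It shares 122 exon bases, 10.8% of its exon length, with the antisense gene Gm11775, which was at 8.45 and 29.6 in the controls and at 33.9 and 29.7 in the mice labelled cKO.

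Nkg7, a granule protein of NK cells and cytotoxic T cells (chr7:43437073-43438249, plus strand), was at 11.8, 7.62, 1.03 and 6.76. Its mean of 6.81 was under the minimum for the test. The groups did not overlap, but WT 2 and cKO 2 were close, from 9 and 5 reads, and the pooled ratio of 0.360 had an interval of 0.120 to 0.910 from counting error only.

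**Figure D2:**
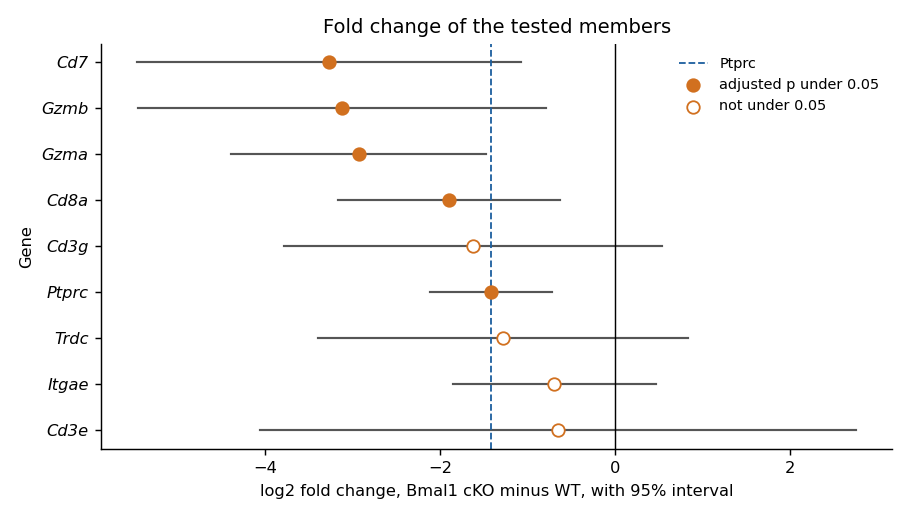
Log2 fold change (mice labelled cKO minus WT) of the 9 tested members with its 95% interval, filled where the adjusted p is under 0.05. The dashed line marks Ptprc at −1.42; Gzma, Gzmb and Cd7 lie farther left, and the intervals of the 4 open points cross 0.

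The regions just before the start of Gzma, Gzmb, Cd8a and Cd3e are shown as examples, chosen after their values were seen. The interval of Cd3e covers the fold changes of the others, so no difference between them was shown. A link of these sequences to the values was not tested. Each sequence is the 250 bases before the RefSeq start (GRCm38.p6), written in the direction of the gene. Capitals mark matches, on either strand, to the RUNX motif TGTGGT, the AP-1 motif TGANTCA or the ETS motif CAGGAA. The E-box CACGTG, the motif bound by BMAL1 with CLOCK, was searched as well. The windows are chr13:113100982-113101231 (minus strand), chr14:56262335-56262584 (minus strand), chr6:71373177-71373426 (plus strand) and chr9:45009612-45009861 (minus strand).
Gzma: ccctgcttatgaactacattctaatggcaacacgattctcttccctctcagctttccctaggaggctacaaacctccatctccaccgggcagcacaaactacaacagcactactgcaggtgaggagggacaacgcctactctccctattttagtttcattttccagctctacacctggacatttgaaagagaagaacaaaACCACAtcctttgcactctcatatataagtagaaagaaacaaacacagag
Gzmb: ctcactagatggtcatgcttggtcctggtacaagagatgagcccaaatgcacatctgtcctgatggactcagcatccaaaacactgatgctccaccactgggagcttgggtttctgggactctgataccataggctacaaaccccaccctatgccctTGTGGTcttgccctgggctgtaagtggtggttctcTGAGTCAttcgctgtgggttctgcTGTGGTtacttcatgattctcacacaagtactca
Cd8a: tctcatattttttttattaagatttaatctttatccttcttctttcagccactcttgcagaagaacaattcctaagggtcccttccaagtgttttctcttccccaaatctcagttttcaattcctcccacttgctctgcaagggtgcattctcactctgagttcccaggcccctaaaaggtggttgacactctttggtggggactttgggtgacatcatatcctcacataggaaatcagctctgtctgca
Cd3e: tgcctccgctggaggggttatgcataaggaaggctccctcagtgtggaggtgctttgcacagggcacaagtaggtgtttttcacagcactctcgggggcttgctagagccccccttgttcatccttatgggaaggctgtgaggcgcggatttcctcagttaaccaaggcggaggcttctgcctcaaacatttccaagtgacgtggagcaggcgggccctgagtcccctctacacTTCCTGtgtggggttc

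RefSeq windows were found for 7 of the 10 members (8 windows, with 2 overlapping ones for Ptprc). The RUNX motif was in those of Gzma, Gzmb and Nkg7, and in 14.0% of all 32851 windows of this length. Gzmb held it at −93 and −34 from the start with the AP-1 motif between them at −58, which 6.75% of all windows held, and Gzma held it at −50. The ETS motif was in the windows of Cd3e at −16, of Nkg7 at −217 and −35, and of Ptprc, and in 25.7% of all windows. No member window held CACGTG, which was in 6.02% of all windows. The listed matches do not overlap each other, apart from the match that both Ptprc windows share. A match describes letters only, and its absence says nothing of binding outside the window.

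Read against Ptprc in the same library, no single member passed the test. The expression of each member was set against Ptprc as the difference of their log2 values in each library. In the fits against Ptprc, limma took each gene's variance from the trend over all genes, as if it were known. Their p-values and intervals therefore do not carry the uncertainty of 2 mice per group, as those of the level fit do. Of the 8 members tested this way, 0 passed (limma, adjusted p under 0.05), and none had an unadjusted p under 0.05. By edgeR's quasi-likelihood test none was called either, with 2 at an unadjusted p under 0.05, and by DESeq2 none was called. In this comparison 4.73% of all 13982 tested genes were lower and 50.5% were higher relative to Ptprc. Among the tested members, 5 lay below Ptprc and 3 above it.

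Cd7, Gzmb and Gzma lay farthest below Ptprc. Gzma had 5.10 reads per 100 Ptprc reads in WT 1 and 4.55 in WT 2, against 1.63 in cKO 1 and 1.31 in cKO 2. Both controls were higher than both mice labelled cKO, but the counting intervals of WT 2 and cKO 1 overlapped, and the log2 difference of −1.504 ± 0.84 (95% interval −3.14 to 0.13) did not pass (adjusted p = 0.111). Gzmb had 5.64, 2.05, 0.654 and 0.980 reads per 100 Ptprc reads, and Cd7 had 3.76, 2.50, 0.327 and 0.980. In both genes the groups did not overlap. The differences were −1.70 ± 0.94 for Gzmb (adjusted p = 0.108) and −1.84 ± 0.98 for Cd7 (adjusted p = 0.0956), with intervals of −3.53 to 0.14 and −3.77 to 0.08. Gzmb was called without WT 2 (−2.39, adjusted p = 0.0397), and without WT 1 its difference was −1.002 (adjusted p = 0.524). With GC content and length corrected, these differences shrank to −0.78 for Gzma, −0.84 for Gzmb and −0.12 for Cd7.

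The differences of Cd8a, Cd3g, Trdc, Cd3e and Itgae were nearer to 0 than those of Cd7, Gzmb and Gzma, and Itgae is given below. Cd8a had 4.90, 4.55, 3.92 and 2.61 reads per 100 Ptprc reads in WT 1, WT 2, cKO 1 and cKO 2. The groups lay close without overlapping, and the log2 difference was −0.47 ± 0.77 (95% interval −1.98 to 1.03; adjusted p = 0.604). Cd3g had 2.82, 1.25, 1.31 and 1.63, and Trdc had 1.88, 1.02, 1.96 and 0.980, with overlapping groups in both. Their differences of −0.20 ± 0.95 and 0.15 ± 0.999 had intervals of −2.06 to 1.66 and −1.81 to 2.10, which leave room for a change of either sign. Cd3e had 3.29, 0.455, 0.980 and 4.25, and its difference was 0.78 ± 0.95 (adjusted p = 0.489). Nkg7, untested, had 0.940 and 1.02 in the controls and 0.327 and 1.63 in the mice labelled cKO, which lay on both sides of the controls.

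Itgae was the only member with more reads per Ptprc read in both mice labelled cKO than in both controls. It had 8.52 in WT 1 and 6.59 in WT 2, against 16.7 in cKO 1 and 9.15 in cKO 2 per 100 Ptprc reads. WT 1 and cKO 2 lay close together, and the log2 difference of 0.73 ± 0.64 (95% interval −0.52 to 1.98) did not pass (adjusted p = 0.323). It did pass with GC content and length corrected (1.98, adjusted p = 0.0018), a fit in which 84.9% of all genes were higher relative to Ptprc.

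**Figure D3:**
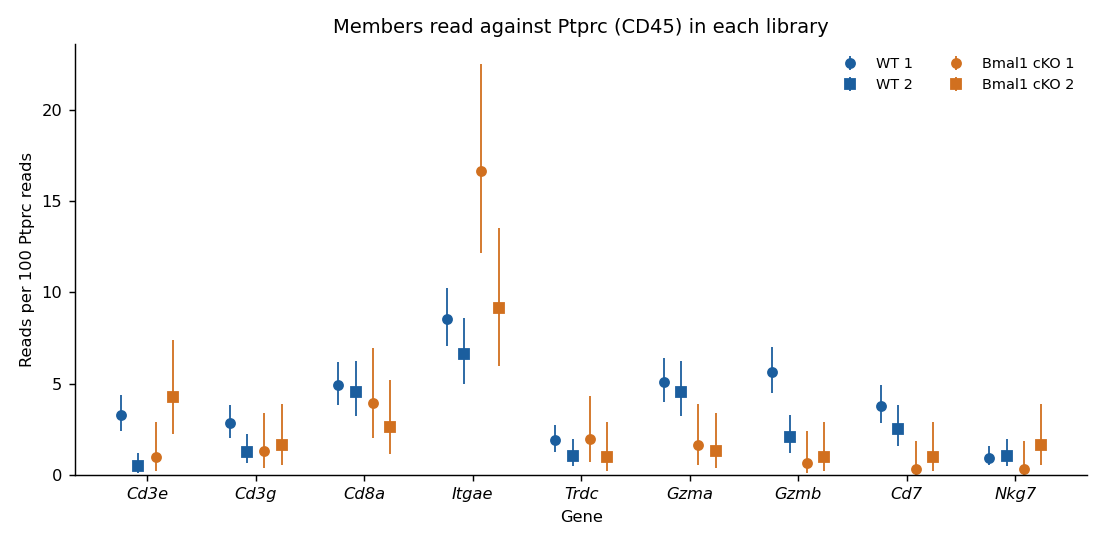
Reads of each member per 100 Ptprc reads in each library, with exact 95% intervals that cover counting error only. Gzma, Gzmb and Cd7 are lower in both mice labelled cKO, and Itgae is higher, up to 16.7 in cKO 1.

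The choice of reference changed the calls. The 15 pan-leukocyte genes, such as those of the cytoskeleton and signalling in blood cells, had a median log2 fold change of −2.94 against −1.42 for Ptprc, and 8 of 15 were called lower relative to Ptprc, beside 4.73% of all genes. With GC content and length corrected the list's median was −2.90 against −2.53 for Ptprc. In level 14 of 15 were lower, beside 27.7% of all genes, with 9 without WT 1, 14 without WT 2, 10 without cKO 1 and 11 without cKO 2. Against the mean of this list Itgae was higher (2.45, adjusted p = 7.70e-04), and so was Cd3e (2.50, adjusted p = 0.0159), while no member was lower. These p-values have the same limit as those against Ptprc. Against this reference 85.7% of all genes were higher, so 2 of 8 members was below the background. Against Epcam, an epithelial surface gene at a log2 fold change of −0.004 (adjusted p = 0.984), the 5 members named above were lower, as were 26.6% of all genes.

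Trac, the constant segment of the T cell receptor alpha chain, fell in level and was called lower relative to Ptprc. It was at 63.4 in WT 1, 14.4 in WT 2, 0 in cKO 1 and 2.70 in cKO 2, a log2 fold change of −4.03 ± 1.14 (adjusted p = 0.0290). Its log2 difference relative to Ptprc was −2.61 ± 1.06 (adjusted p = 0.0278), and that of Cd4 was −1.84 ± 0.85 (adjusted p = 0.0546). As said above, the p-values of this fit do not carry the uncertainty of so few mice. The fold change of Ptprc itself was −1.42, and −2.53 with GC content and length corrected. The share of Trdc in the reads of the pair was higher in both mice labelled cKO, on few reads, and WT 1 and cKO 1 were alone in having intervals that do not overlap. Its share was 27.2% in WT 1 (exact 95% interval 18.9 to 36.8) and 34.6% in WT 2 (17.2 to 55.7). It was 6 of 6 reads in cKO 1 (54.1 to 100%) and 3 of 5 in cKO 2 (14.7 to 94.7%).

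Per kilobase of the longest transcript, Ptprc was the highest member in the controls with 174.6 normalized counts. Gzma followed with 49.2, Cd7 with 33.6, Gzmb with 30.0 and Itgae with 20.3, then Cd8a (15.3), Nkg7 (11.04), Cd3g (8.82), Cd3e (8.78) and Trdc (4.05). Only the step from Ptprc to Gzma exceeded the spread of the control mice, and the other 8 neighbouring pairs overlapped. In the mice labelled cKO the order on this scale began with Ptprc (63.4), Itgae (11.7) and Gzma (5.30), and the steps between these 3 did not overlap. Nkg7 (4.42), Cd3e (4.05), Cd8a (3.70), Cd7 (2.59), Cd3g (2.14), Gzmb (2.13) and Trdc (1.32) followed with overlapping neighbours. Gzmb thus ranked 4 of 10 in the controls and 9 of 10 in the mice labelled cKO.

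Other genes of the same roles were described from 3 lists of 54 genes in all, of which 46 were listed and 33 tested. Of these 33, 15 were lower and 1 was higher, with a median log2 fold change of −2.16, against 27.7% lower and 29% higher and a median of −0.04 over all tested genes. The minimum was set on the mean of all libraries, so genes near the floor in the mice labelled cKO could pass it through the controls. With no filter 18 of 46 were lower, as were 4078 of all 16015 genes. Without WT 1 the count lower was 7, without cKO 1 it was 2 and without cKO 2 it was 3.

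Of the T cell receptor and co-receptor genes, 4 of 10 tested were lower (Cd4, Cd2, Trac and Trbc2, the last of which encodes a beta chain constant segment). Genes such as Cd2 and Trac passed the minimum mean through the controls, and with no filter 5 of the 17 listed were lower. Cd2 and Trbc2 are named after their values were seen. With GC content and length corrected 1 was lower, as without WT 1 or without cKO 2, while 6 were without WT 2 and 0 without cKO 1. Relative to Ptprc the median of the list was −1.28, with 2 of 10 called lower, where 4.73% of all genes were. With GC content and length corrected, the list's median log2 fold change was −1.94 against −2.53 for Ptprc, so it lay above Ptprc. Their summed level was 771.3 in WT 1, 215.1 in WT 2, 62.7 in cKO 1 and 96.0 in cKO 2, and 7 of the 17 listed were at 3 reads or fewer in both mice labelled cKO. Lck, the kinase that starts T cell receptor signalling, was at 103.1, 48.3, 5.14 and 28.4 and did not pass (−2.41 ± 0.85, adjusted p = 0.0570). Thy1 (−3.40, adjusted p = 0.0576) and Zap70 (−1.496, adjusted p = 0.129) did not pass either. Cd2, an adhesion receptor of T cells, was at 38.9 in WT 1 and 5.08 in WT 2 and had no read in either mouse labelled cKO.

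Of the cytotoxic and NK genes, 4 of 8 tested were lower and none was higher, and with no filter 5 of 13 were lower. With WT 1 or WT 2 left out 3 were lower, and with cKO 1 or cKO 2 left out 1 was. Relative to Ptprc the median of the list was −0.33, with 3 of 8 called lower, beside the 4.73% of all genes. The corrected medians for GC content and length were −2.61 for the list and −2.53 for Ptprc. Ccl5, a chemokine of cytotoxic T cells, was at 92.9 and 45.7 in the controls and had no read in either mouse labelled cKO, at least 19.4-fold lower against a floor of 3 reads per library, or at least 12.8-fold from WT 2 alone. Cd244a, a receptor of NK cells and CD8 T cells, was at 92.9, 63.5, 23.7 and 21.6 and fell by 1.72 ± 0.37 on the log2 scale (adjusted p = 0.0119). Srgn, whose proteoglycan packs granules in many leukocytes, was highest in WT 2 (791.6, 2258, 192.3 and 154.1; −2.95, adjusted p = 0.0047). So was Ccl4 (35.5, 858.9, 10.3 and 5.41; −4.38, adjusted p = 0.0475), a chemokine that neutrophils and macrophages also make, and neutrophil genes were highest in that library too. Ctsw, a protease of cytotoxic cells, was at 37.2, 17.8, 15.4 and 14.9 and did not pass (adjusted p = 0.304).

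Genes of residence and homing split, with 8 of 17 lower and 1 higher, and with no filter 9 of 18 were lower. The count lower was 3 without WT 1, 8 without WT 2 and 1 without cKO 1 or without cKO 2. Relative to Ptprc the median of the list was −0.30, with 1 called lower and 3 higher, beside 4.73% and 50.5% of all genes. In the fit corrected for GC content and length, the median log2 fold change of these residence genes was −1.98, above the −2.53 of Ptprc. The side of Ptprc on which their median lay therefore depended on that fit. Il2rg, the shared receptor chain for IL-15 and IL-7, fell by 2.64 (adjusted p = 0.0198), and Itgal, an integrin chain of leukocytes, by 1.597 (adjusted p = 0.0219). Ahr, the aryl hydrocarbon receptor, which epithelial cells also express, rose from 310.9 and 250.7 to 503.0 and 562.3 (0.93 ± 0.16, adjusted p = 0.00531), but did not pass with GC content and length corrected (0.41, adjusted p = 0.105). Itga1 (369.2, 224.5, 270.5 and 281.2) and Prdm1 did not pass (adjusted p = 0.846 and 0.521). Runx3, Cd160 and Cxcr6 are named after their values were seen. Runx3, a transcription factor of CD8 T cells, was at 187.6, 49.98, 10.3 and 6.76 (−3.39, adjusted p = 0.0111). Cd160, a receptor found on intraepithelial T cells, was at 17.7, 16.1, 23.7 and 13.5 (0.08, adjusted p = 0.908), and Cxcr6, a homing receptor, at 31.3, 9.32, 26.7 and 16.2 (0.26, adjusted p = 0.771). In the latter pair the groups overlapped.

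Epithelial genes whose products attract, feed or bind these lymphocytes had a median log2 fold change of 1.07, with 8 of 16 tested higher, where 29% of all genes were, and 0 lower by limma. Ccl28, a chemokine of the colonic epithelium, was at 868.5 and 901.3 in the controls and at 4965 and 5799 in the mice labelled cKO (2.60 ± 0.11, adjusted p = 5.33e-04). Cxadr, a junction protein that binds JAML on gamma-delta T cells, rose by 1.68 (adjusted p = 7.44e-04), Il18 by 1.73 (adjusted p = 0.00155) and Btnl4, a butyrophilin-like gene, by 1.25 (adjusted p = 0.00436). The other tested butyrophilin-like genes, Btnl1 (−0.78), Btnl2 (−0.34) and Btnl6 (−0.45), did not pass and are also named after their values were seen. The other 4 that rose, named here after their values were seen, were Il15ra (1.10), Il7 (1.57), Ccl25 (1.54) and H60c (2.27). Cdh1, given above, did not pass. With GC content and length corrected 5 of the list were higher, and with 1 library left out 6 or 7 were. Without WT 1, 2 of the list were lower, and 1 was by edgeR, by DESeq2, with scaling by library total and with a mean of at least 50.

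**Figure D4:**
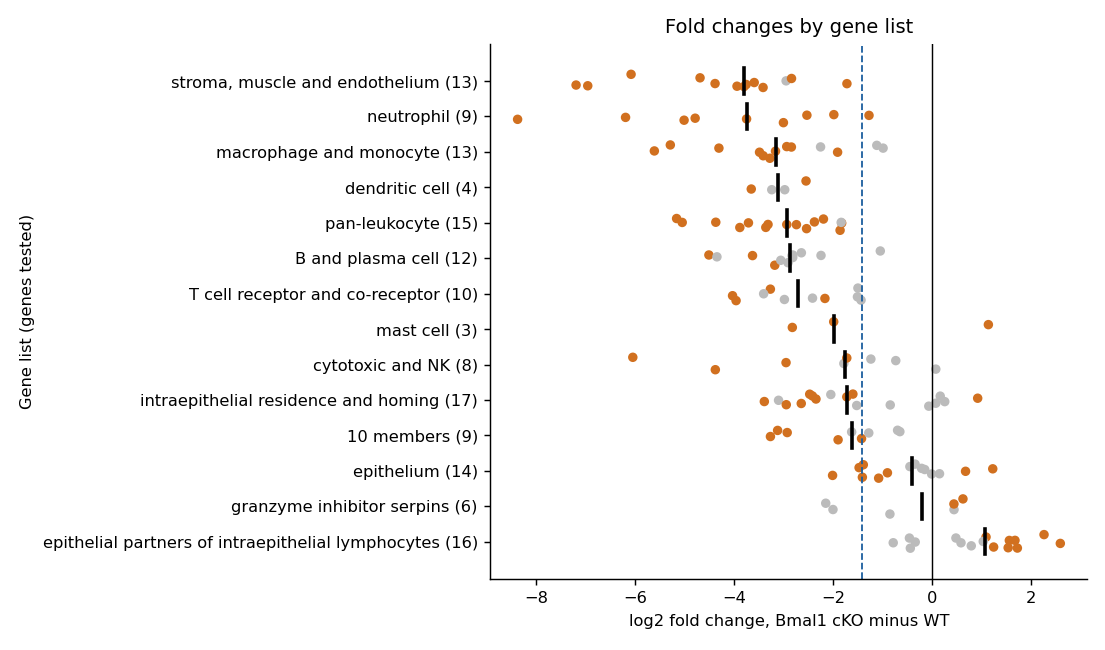
Log2 fold change (mice labelled cKO minus WT) of each tested gene by list, orange where the adjusted p is under 0.05 and grey otherwise, with a black bar at the list's median, a dashed line at Ptprc (−1.42) and the number tested in parentheses. The members have a median of −1.62, the pan-leukocyte list −2.94 and the epithelial partners 1.07.

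Markers of other cell types were counted in the same way, beside the 27.7% of all genes that were lower. Of macrophage and monocyte genes 10 of 13 fell (median −3.16), of neutrophil genes 9 of 9 (−3.75) and of stroma, muscle and endothelium genes 12 of 13 (−3.80). With 1 library left out these counts were 4 to 12, 4 to 8 and 6 to 13. Of B and plasma cell genes 3 of 12 fell (−2.87), a share near that of all genes, with 9 by DESeq2, 5 with the replicate block, 9 without WT 2, 2 without WT 1 and 0 without cKO 1, without cKO 2 or with GC content and length corrected. Of dendritic cell genes 2 of 4 fell (−3.11), with 0 without WT 1 or without cKO 2, 1 without cKO 1 or with GC content and length corrected, and 3 by DESeq2. The epithelial list had 6 lower and 2 higher of 14 (−0.39), but 0 lower and 6 higher with GC content and length corrected (0.17). The part of these differences in cell makeup in the members' values was not tested. The members' values in every library were nearest to those of Fzd2, a Wnt receptor (40.6, 13.6, 4.11 and 6.76; distance 0.135), Ccn4 (0.159) and Gdf11 (0.174), by the Euclidean distance of centred log2 values over 4 libraries.

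The count of 5 members lower changed when a library was left out, and a fit on fewer libraries calls fewer genes at the same fold change. Fold changes without cKO 1 and without cKO 2 were −2.90 and −2.96 for Gzma and −2.76 and −3.48 for Gzmb. They were −2.61 and −3.92 for Cd7, −1.98 and −1.81 for Cd8a, and −1.23 and −1.62 for Ptprc. Without WT 1 all 5 fold changes were smaller in size. Without WT 1, 2 members passed (Gzma and Ptprc), and without WT 2, 6 passed (these 5 and Cd3g). Without cKO 1 and without cKO 2 none passed by limma, with 3 at an unadjusted p under 0.05 in each case. In these fits the lone library of a group is assumed to vary like those of the other.

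**Figure D5:**
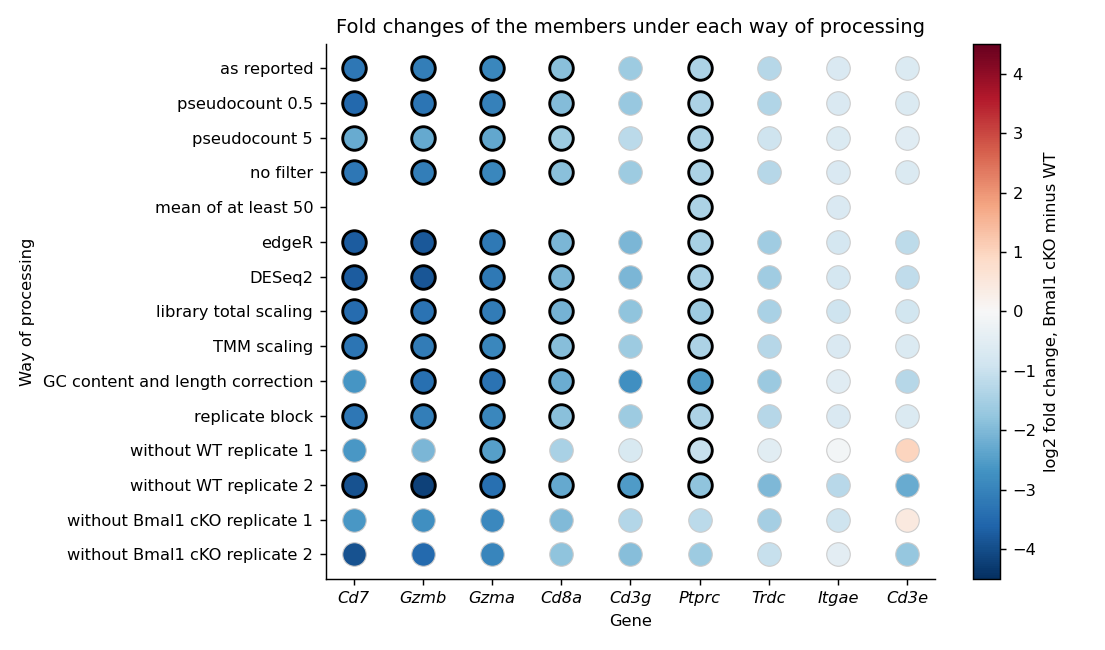
Log2 fold change (mice labelled cKO minus WT) of the 9 tested members under each way of processing, from blue (lower) to red (higher), with a black ring where the adjusted p is under 0.05 and no point where a gene was not tested. Gzma, Gzmb, Cd7, Cd8a and Ptprc are blue throughout, whereas Cd3e turns to 0.99 without WT 1.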

How the data were processed

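Libraries of colonic crypt RNA from 2 WT mice and 2 mice labelled Bmal1 cKO were analysed, grouped by their titles. The authors aligned reads to GRCm38 with STAR and used DESeq2, per the labels and methods. The counter, the annotation release and strandedness are not given in the sources used here. The deposited values are a signal (each gene's count over its library's size factor), and 100% were whole reads within 0.1 once that division was undone (16015 genes, 10312791 to 14156639 reads per library). Columns of the authors' own comparison (mean, fold change, error, statistic and p-values) were not used.

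Values were taken to log2(normalized count + 1), so fold changes of low genes are understated. Genes with a mean of at least 10 (13983) were tested with limma 3.58.1 (R 4.3.3; mean-variance trend, two-sided, Benjamini-Hochberg, threshold 0.05), and again after subtracting the log2 value of Ptprc in the same library (13982). In the limma fits against Ptprc or the pan-leukocyte list, variances came from the trend alone and were treated as known. Their p-values are therefore less strict than those of the level fit. Alternatives were pseudocounts of 0.5 and 5, no filter, a mean of at least 50, edgeR 4.0.16 (quasi-likelihood) and DESeq2 1.42.0 on recovered reads, scaling by library total or TMM, a loess correction (span 0.3) for GC content and length, a replicate block, each library left out, and other references. Scripts were tested on simulated data.

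The members and lists were chosen with earlier results of these data known. The rule named all members, Cdh1, of each list at most 5 tested genes of highest mean, and the 3 genes nearest in pattern. Genes named beyond it are marked in the text as named after their values were seen. The mice are separate animals, but nothing says that their RNA was prepared separately. Promoter sequences are from RefSeq (GRCm38.p6), and gene positions and lengths from GENCODE M21. Intervals from reads cover counting error only, since molecules were not tagged.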

Additional observations from a re-analysis of the deposited data

How the results depend on the processing

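Counts of members lower were 5 under both pseudocounts, no filter, edgeR, DESeq2, both scalings and the replicate block, and 4 with GC content and length corrected. With a mean of at least 50 only 2 members were tested and 1 was lower. Leaving out 1 library gave 0 to 6 members lower (0 without cKO 1 and without cKO 2), 2205 to 2852 of all genes lower and 2 to 16 list genes lower. The correction for GC content and length gave 2483 genes lower against 3871, where log2 fold change followed GC content across genes (Spearman rho −0.61, 13975 genes). A mean of at least 50 gave 7 list genes lower against 15. Scaling by library total moved the median log2 fold change of all genes by −0.22, and TMM by −0.002. Relative to Ptprc, leaving out 1 library gave 0 to 1 members lower, and the Epcam reference gave 5.

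Signs turned for Cd3e in log2 fold change, which ran from −2.28 to 0.99 over single libraries left out (0.99 without WT 1, 0.45 without cKO 1). Relative to Ptprc, leaving out 1 library gave −0.48 to 2.03 for Cd3e (−0.48 without WT 2, −0.12 without cKO 2), −0.73 to 0.33 for Cd3g (0.33 without WT 1) and −0.30 to 0.59 for Trdc (−0.23 without WT 2, −0.30 without cKO 1). With the pan-leukocyte reference the difference was 1.52 for Cd3g, 1.25 for Cd8a, 0.22 for Gzma and 0.023 for Gzmb. With the Epcam reference it was −0.64 for Cd3e, −0.69 for Itgae and −1.27 for Trdc. Cd3g turned to 0.19 with a pseudocount of 5, Cd8a to 0.29 with GC content and length corrected, and Trdc to −0.0017 in edgeR. The cause of these turns was not tested.

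Same-numbered mice did not pair, since their deviations from the group means correlated at −0.09 across genes. With the replicate block 5 members were lower, 0 were lower relative to Ptprc, 3789 of all genes were lower and 14 list genes were lower. Reads were few for Cd3e, Cd3g, Trdc, Gzma, Gzmb, Cd7 and Nkg7, each at or under 5 reads in at least 1 library labelled cKO.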

Other observations

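A list of serpins, not limited to granzyme inhibitors, held 6 tested genes. Of these, 2 were higher and none was lower, where 29% of all genes were higher. With GC content and length corrected 0 were higher and 1 was lower, and without WT 2 the list had 2 higher and 2 lower. The count higher was 1 without WT 1 and 0 without cKO 1 or without cKO 2. Serpinb1a was at 6133 and 7431 in the control mice and at 10749 and 10147 in the mice labelled cKO (log2 fold change 0.63 ± 0.13, adjusted p = 0.0109, limma), and Serpinb6a rose by 0.45 (adjusted p = 0.0168). Both are abundant serpins that many cell types express. Serpinb9, the inhibitor of granzyme B, was at 170.7, 37.3, 123.4 and 97.3 in WT 1, WT 2, cKO 1 and cKO 2, and its groups overlapped (0.45 ± 0.70, adjusted p = 0.605). Serpina3g was at 522.1 in WT 1 against 49.98, 39.1 and 40.6 in the other 3 libraries and did not pass (adjusted p = 0.154).

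Of 3 tested mast cell genes, 2 were lower and 1 was higher, beside 27.7% and 29% of all genes. With 1 library left out, 0 (without cKO 1) or 1 was lower and 0 were higher. S1pr1, a receptor with which T cells leave tissue and which endothelium also carries, was at 258.5 in WT 1, 18.6 in WT 2, 2.06 in cKO 1 and 21.6 in cKO 2, and the groups overlapped (adjusted p = 0.128). S1pr1 was named after its values were seen.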
